A study of Mus musculus with 4 samples.

Results

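Ribosomal protein pseudogenes were taken as the annotated rows whose symbol begins with Rpl or Rps and ends in "-ps", with or without a number. The rule found 298 of the 54532 genes counted, of which 188 have large-subunit (Rpl) names and 110 small-subunit (Rps) names. The annotation classes 283 as processed pseudogenes, 7 as transcribed processed pseudogenes and 8 as protein-coding genes, and 35 lie on chromosome X. Their names point to 62 parent genes, 61 of which have a row of their own, and a parent with its pseudogenes is called a family here. Not every parent is a protein-coding gene, since the annotation classes Rps4l as a transcribed processed pseudogene.

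Polyadenylated RNA was sequenced from primary microglia, the resident macrophages of the brain, grown from the cortex of newborn male pups of the outbred CD1 mouse strain. Both groups were mixed glial cultures from which the microglia were separated with trypsin and kept in serum-free medium with IL-34, TGFβ2 and GM-CSF. The EGCG group received 1 µM (−)-epigallocatechin gallate, a flavan-3-ol of green tea, for 24 h, and the Vehicle group received dimethyl sulfoxide for 24 h. There were 2 libraries a group, labelled as biological replicates 1 and 2, and p-values measure the spread between these libraries, since the labels do not say what separates one replicate from the next. The comparison asked which transcripts differ between microglia with and without EGCG.

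A processed pseudogene arises when a messenger RNA is copied back into DNA and inserted elsewhere in the genome, so that it lacks the introns and usually the promoter of its parent. Ribosomal protein messenger RNAs are short and very abundant in every cell, and mammalian genomes hold a great many such copies of them. A sequencing read from the parent can match a near-identical copy as well, so a count on a pseudogene row does not by itself show that the pseudogene is transcribed.

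Total counts ran from 33805071 to 54970300 a library, with EGCG replicate 2 the deepest. All 9 microglia markers had counts in each library and summed to between 5580 and 8270 CPM (counts per 1000000 counts), against 12.1 to 14.1 CPM for 5 astrocyte markers and 68.7 to 72.9 CPM for 5 oligodendrocyte markers, of which Mog was at 0 in 3 libraries. The sum over 5 fibroblast markers was 279 and 98.8 CPM in Vehicle replicates 1 and 2, 4.38 CPM in EGCG replicate 1 and 95.6 CPM in EGCG replicate 2. In EGCG replicate 1, Lum was at 0 and Col1a1, Col1a2 and Dcn had 2 to 4 counts each, while Pdgfra, at 4.12 CPM, was higher there than in the other libraries (1.19 to 3.61 CPM). In bulk samples such as these, fewer cells of a type and less RNA per cell cannot be told apart. Each replicate number was deposited as a table of its own, so the replicate number, the table and any batch cannot be told apart.

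To show how close these copies are to their parents, the stretches in which the leading pseudogenes differ from the parent coding sequence are given first. Rpl34-ps1 (chr6:71124610-71124963, + strand) took most of the counts of its family, and Rpl34-ps2 (chr13:116153781-116154134, + strand) took few. Rpl34 encodes a large-subunit protein, and its gene lies at chr3:130726831-130730398 on the − strand. The stretch runs from base 120 to base 330, counted from the first base of the parent's start codon, and capitals mark the bases that differ from the parent.
Rpl34: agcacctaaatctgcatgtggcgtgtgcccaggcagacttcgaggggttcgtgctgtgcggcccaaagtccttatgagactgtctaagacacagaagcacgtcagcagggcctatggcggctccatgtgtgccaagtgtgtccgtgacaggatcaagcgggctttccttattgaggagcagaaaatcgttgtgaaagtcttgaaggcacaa
Rpl34-ps1: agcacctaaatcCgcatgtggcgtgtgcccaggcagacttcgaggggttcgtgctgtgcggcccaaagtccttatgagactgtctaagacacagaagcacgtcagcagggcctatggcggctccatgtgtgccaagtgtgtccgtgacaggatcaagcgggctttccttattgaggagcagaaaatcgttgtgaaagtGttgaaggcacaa
Rpl34-ps2: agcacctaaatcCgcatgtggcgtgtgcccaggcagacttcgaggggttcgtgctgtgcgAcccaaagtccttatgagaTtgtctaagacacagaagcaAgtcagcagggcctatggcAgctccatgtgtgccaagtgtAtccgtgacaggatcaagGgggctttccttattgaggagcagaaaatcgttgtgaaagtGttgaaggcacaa
Rpl34-ps1 differs from Rpl34 at 2 bases of its 354, and both lie in this stretch. Rpl34-ps2 carries 8 differences in the same 211 bases, the first and the last of which are also those of Rpl34-ps1.

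The Rpl21 family gives the same kind of contrast. Rpl21 encodes a large-subunit protein, and its gene lies at chr5:146832890-146837032 on the + strand. Rpl21-ps15 (chrX:151215167-151215649, − strand) is its leading copy, while Rpl21-ps9 (chr2:156386741-156387222, + strand) had 1 count in all 4 libraries together. Bases 324 to 444 are shown.
Rpl21: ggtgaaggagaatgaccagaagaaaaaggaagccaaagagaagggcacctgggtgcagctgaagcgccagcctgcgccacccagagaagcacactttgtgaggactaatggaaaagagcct
Rpl21-ps15: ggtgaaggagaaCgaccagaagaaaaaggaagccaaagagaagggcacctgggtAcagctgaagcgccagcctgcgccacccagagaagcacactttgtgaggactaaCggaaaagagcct
Rpl21-ps9: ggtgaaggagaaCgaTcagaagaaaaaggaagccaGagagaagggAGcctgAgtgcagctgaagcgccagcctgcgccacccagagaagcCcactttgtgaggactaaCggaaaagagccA
All 3 differences of Rpl21-ps15 from its parent fall in this stretch, where Rpl21-ps9 has 9.

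Rps10-ps2 (chr16:20822145-20822640, − strand) differs from Rps10, a small-subunit gene at chr17:27630418-27636669 on the − strand, at 5 of 496 bases, all near its end. Bases 381 to 485 are shown.
Rps10: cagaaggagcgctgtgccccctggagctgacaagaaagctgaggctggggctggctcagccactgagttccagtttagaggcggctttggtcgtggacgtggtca
Rps10-ps2: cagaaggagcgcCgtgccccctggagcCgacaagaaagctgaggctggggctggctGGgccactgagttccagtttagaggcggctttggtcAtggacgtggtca
The copy is identical to its parent over a run of 392 bases before these positions.

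Rpsa-ps10 (chr3:150072658-150073542, − strand) had the highest mean level of all the pseudogenes in CPM, though not per kilobase. Its parent Rpsa, at chr9:120127689-120132369 on the + strand, encodes a small-subunit protein also described as a laminin receptor precursor. Of its 6 differences over 885 bases, 3 lie between bases 198 and 357.
Rpsa: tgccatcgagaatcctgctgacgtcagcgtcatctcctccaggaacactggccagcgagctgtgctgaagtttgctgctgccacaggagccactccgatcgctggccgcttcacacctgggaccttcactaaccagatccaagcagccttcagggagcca
Rpsa-ps10: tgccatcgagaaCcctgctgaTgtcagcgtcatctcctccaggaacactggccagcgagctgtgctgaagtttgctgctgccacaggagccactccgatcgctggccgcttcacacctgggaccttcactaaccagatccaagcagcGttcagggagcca
These sequences are those of the GRCm38 reference genome with the GENCODE M21 annotation, not of the CD1 animals, and how the animals' own sequence bears on the counts was not tested. Rpl34-ps2 and Rpl21-ps9 were chosen after their values were seen.

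Of the 298 pseudogenes, 158 had at least 1 count in a library, 118 had at least 10 counts summed over the 4 libraries and 77 had at least 10 in every library. The 118 are 39.6% of the set, while 1125 of 9483 other processed pseudogenes (11.9%) reached the same sum. Pseudogenes with names outside the rule include further near copies of ribosomal protein genes, such as 77 of Rpl29. A near copy had at least 90% identity over at least 200 bases. The percentages therefore do not set ribosomal against non-ribosomal copies. No read was counted on 140 of them, and with 3 counts as the limit that a count of 0 allows, the level of each of these lay below 0.0546 to 0.0889 CPM, depending on the library and for counting error only. Counts were concentrated on few rows: the 10 highest members held between 64.6% and 72.3% of all pseudogene counts in a library.

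Identity to the parent was higher in pseudogenes with more counts. Of the 298, 293 could be aligned to a parent transcript. The median identity was 91.4% for the 138 aligned of the 140 with 0 counts, 96.7% for 38 of the 40 with 1 to 9 counts, 98.7% for 86 of the 87 with at least 10 and under 1000 counts and 99.6% for the 31 with at least 1000 counts. All 58 pseudogenes with an identity of 99% or more had at least 10 counts, and among the 31 with the most counts the lowest identity was 98.1%. Across the 293 pseudogenes, Spearman's rho between identity and summed counts was 0.81, a description across genes that share parents, libraries and base composition.

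**Figure D1:**
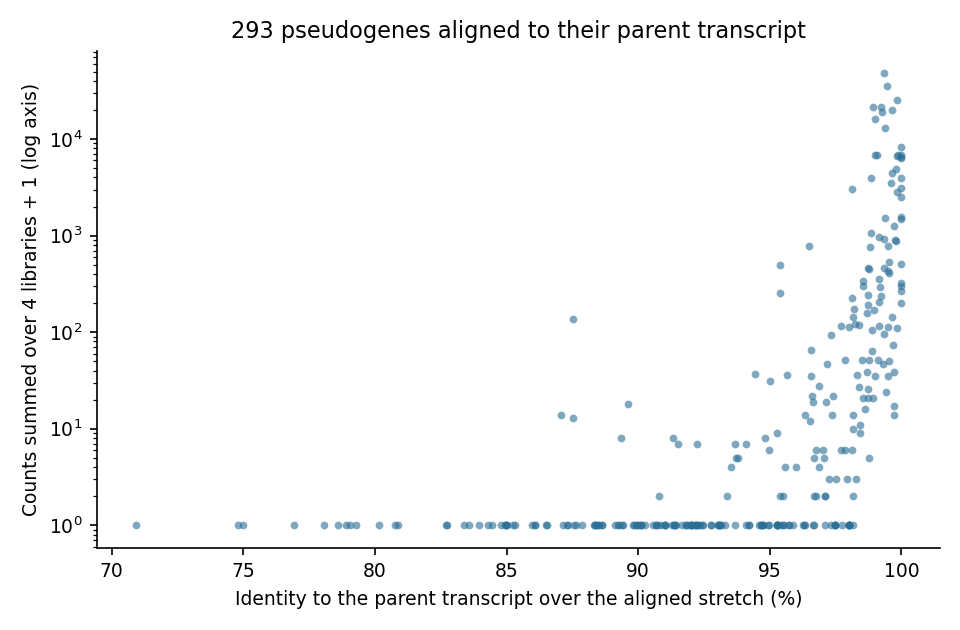
Identity of each of 293 pseudogenes to its parent transcript (x axis, %) against its counts summed over the 4 libraries plus 1 (y axis, log scale). Each point is 1 pseudogene, and pseudogenes with the highest counts sit at the right edge, where the 31 with at least 1000 counts have a median identity of 99.6%.

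An open reading frame as long as the parent's was present in 31 of the 140 pseudogenes with 0 counts, 20 of the 40 with 1 to 9, 48 of the 87 with at least 10 and under 1000, and 26 of the 31 with at least 1000. A stretch of 150 bases identical to the parent was present in 1, 6, 56 and 31 of them, in the same order. Some pseudogenes of at least 100 counts had an identity under 97%, and those named here were chosen after their values were seen. Among them were Rpl36a-ps3 at 87.5% identity with 137 counts, Rps19-ps3 at 95.4% with 493 and Rps2-ps6 at 96.5% with 770.

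There were 14 pseudogenes with no difference from the parent over the aligned stretch, and reads inside such a stretch cannot be assigned by sequence alone. Their counts were not a fixed share of the parent's. Rps12-ps3, a copy of the small-subunit gene Rps12 on chromosome 19 that the annotation classes as protein-coding, held between 14.7% and 21.1% of the counts of parent and copy together. For Rps16-ps2 the share was 11.4% to 13.0%, for Rps6-ps4 8.25% to 8.83% and for Rpl10-ps3 0.12% to 0.224%. All but Rps12-ps3 were chosen after their values were seen, and how the counting treated reads with several matches is not given in the sources used here.

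Rpsa-ps10 was at 228 and 333 CPM in Vehicle replicates 1 and 2 and at 247 and 355 CPM in EGCG replicates 1 and 2. Rpl34-ps1 was at 190 and 238 CPM in Vehicle and at 229 and 231 CPM in EGCG. For both pseudogenes the levels of the 2 groups overlapped.

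Per kilobase of the annotated row, the order changed. Rpl34-ps1 had the highest level, with 537, 671, 648 and 652 CPM per kilobase in Vehicle 1, Vehicle 2, EGCG 1 and EGCG 2, and Rpsa-ps10 followed with 257, 376, 279 and 402 CPM per kilobase. The lowest of the 10 was Rps12-ps3, at 94.0 to 119 CPM per kilobase. Ranked by their mean on this scale, 8 of the 9 pairs of neighbours among the 10 overlapped between libraries. The plot of the 10 highest members gives the CPM scale.

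Rpl3-ps1, a copy of the gene for a large-subunit protein near the peptidyl transferase centre, was at 175, 143, 187 and 142 CPM in Vehicle 1, Vehicle 2, EGCG 1 and EGCG 2. Rpl14-ps1, which lies on the strand opposite to Trpm4, was at 142 and 140 CPM in Vehicle and 146 and 122 CPM in EGCG. Rps2-ps13 was at 131 and 134 CPM in Vehicle and 146 and 129 CPM in EGCG. None of these separated the groups. Rps10-ps2 (96.9 and 102 CPM in Vehicle, 96.0 and 107 CPM in EGCG), Rpl21-ps15 (70.4 and 93.8 CPM, then 70.8 and 86.3 CPM) and Rps12-ps3 (47.5 and 53.2 CPM, then 46.4 and 58.6 CPM) also overlapped between groups. Leaving out Rpl17-ps10, the log2 fold changes of the 10 were at most 0.17 in size.

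**Figure D2:**
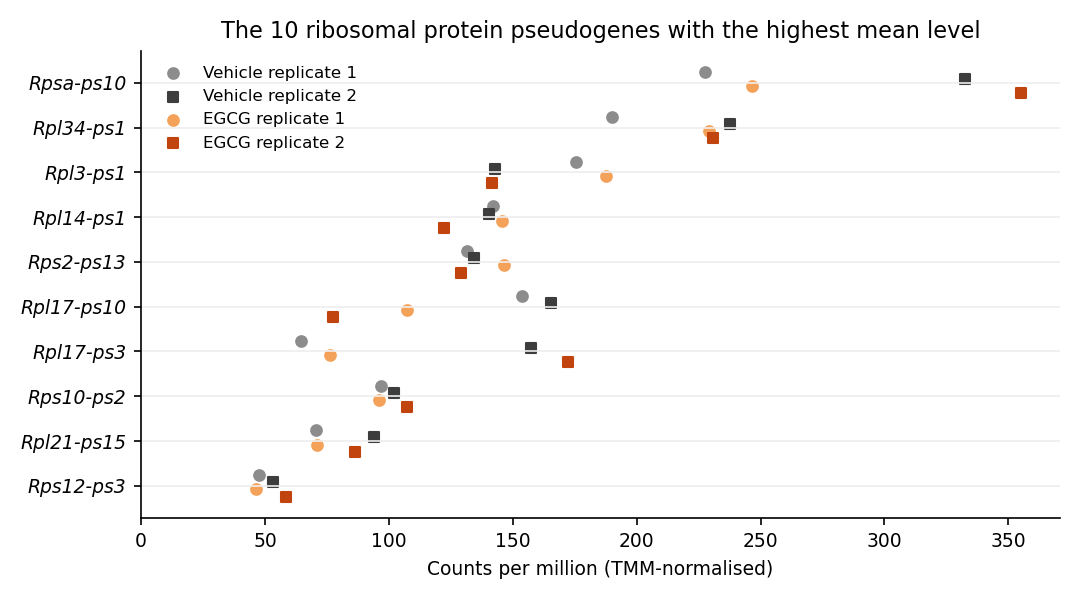
Level of the 10 pseudogenes with the highest mean (x axis, TMM-normalised CPM, starting at 0), with 1 point for each library, grey for Vehicle and orange for EGCG, circles for replicate 1 and squares for replicate 2. For Rpsa-ps10 and Rpl17-ps3 the squares lie to the right of the circles, and for Rpl17-ps10 both EGCG points, at 107 and 77.4, lie to the left of both Vehicle points, at 154 and 165.

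In 4 of the 60 families with at least 100 counts in every library, pseudogenes held more than 50% of the counts. The pseudogene share was 97.8% for Rps10, 97.6% for Rpl34, 75.0% for Rpl17 and 74.9% for Rpl21 over the 4 libraries. Of the other families, 11 lay between 10% and 50%, 19 between 1% and 10% and 26 below 1%, again over the 4 libraries together. These shares leave out near copies annotated as pseudogenes under names outside the rule. For Rpl26, 9 such rows had 4803, 10697, 5408 and 16760 counts in Vehicle 1, Vehicle 2, EGCG 1 and EGCG 2. The row of Rpl26 had 9039, 9695, 9797 and 15168, while Rps10 and Rpl14 had 0 such near copies. Shares differed by replicate in some of them: Rpl3, at 32.4% over all, was at 36.7% and 36.2% in replicate 1 and 30.6% and 28.7% in replicate 2, while Rps18, at 5.28% over all, was at 2.04% and 2.03% in replicate 1 and 38.1% and 34.2% in replicate 2. Rps18 is named here after its values were seen. In that family the parent row moved most, with 7412 and 8020 counts in Vehicle 1 and EGCG 1 and 446 and 629 in Vehicle 2 and EGCG 2. The Rps18 pseudogenes had 154 and 166 counts, then 274 and 327. The row of the parent itself was low in the Rps10 family. The 4 libraries held 81, 77, 108 and 115 counts of Rps10 (Vehicle 1, Vehicle 2, EGCG 1, EGCG 2), against 3271, 3778, 3196 and 5944 of Rps10-ps2.

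In the same order, the Rpl34 row had 247, 165, 245 and 217 counts, against 6421, 8790, 7631 and 12783 on Rpl34-ps1. Rpl34-ps2 had 9, 10, 16 and 11 counts. The Rpl21 row had 734, 1385, 685 and 1789 counts in Vehicle 1, Vehicle 2, EGCG 1 and EGCG 2, against 2378, 3471, 2357 and 4777 on Rpl21-ps15. The Rps10 family sum was 104 and 108 CPM in Vehicle, and 106 and 113 CPM with EGCG. Its log2 fold change was 0.04 ± 0.13 (SE), while the row of Rps10 alone gave 0.25 ± 0.40. In the Rpl34 and Rpl21 families the SE of the log2 fold change was likewise smaller for the family sum, 0.17 and 0.24, than for the parent row, 0.47 and 0.38. It was not smaller in the Rpl17 family, at 0.17 for the sum and 0.14 for the row, or in the Rpl3 family, at 0.16 for both.

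**Figure D3:**
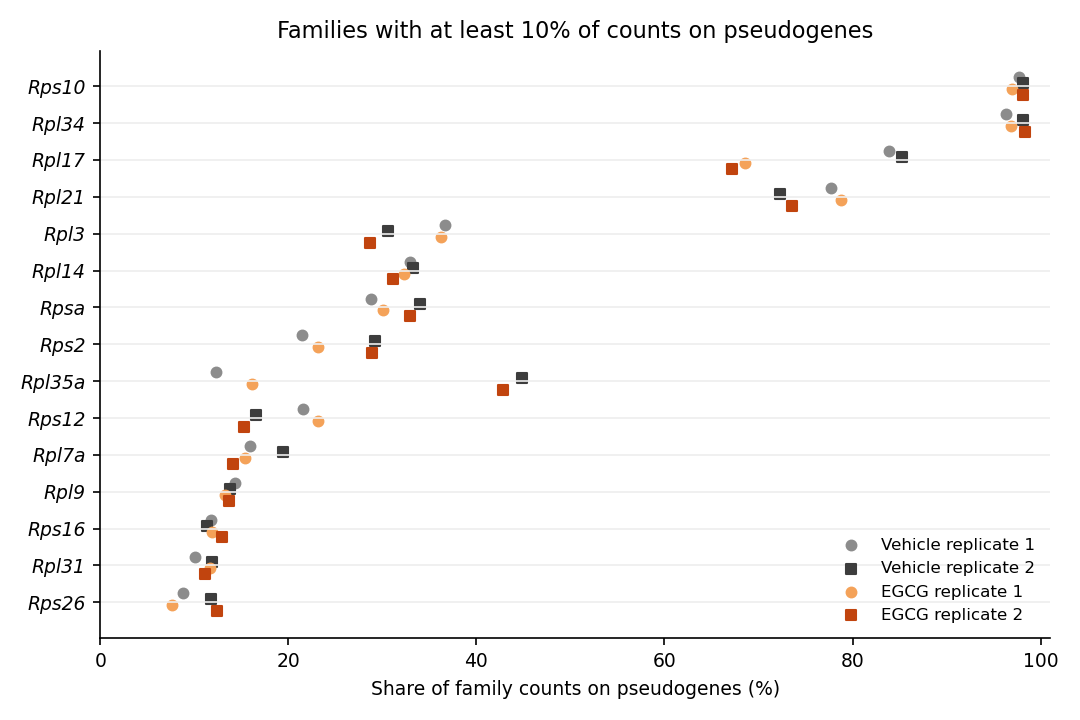
Share of each family's counts that fell on its pseudogenes (x axis, %), for the 15 families at or above 10%, with 1 point for each library in the colours and shapes of the plot of levels. Rps10 and Rpl34 lie above 96% in all 4 libraries, the EGCG points of Rpl17 lie below its Vehicle points, and the replicate 2 points of Rpl35a lie far to the right of those of replicate 1.

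The Rpl17 family was the only family in the set with a pseudogene at an unadjusted p under 0.05 in the fit without a block. Rpl17 encodes a large-subunit protein at the rim of the tunnel through which the new peptide leaves the ribosome, and its gene lies on chromosome 18. On the row of Rpl17 there were 1812 and 2106 counts for Vehicle, then 3768 and 6917 for EGCG, or 53.7 and 56.9 CPM against 113 and 125 CPM. The means were 55.3 ± 2.32 CPM in Vehicle and 119 ± 8.30 CPM in EGCG (SD, n = 2), with no overlap. The log2 fold change was 1.11 ± 0.14 (SE), and without a block edgeR gave an unadjusted p of 0.0012 and an adjusted p of 1.00.

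Rpl17-ps10 (chr7:72648757-72649311, − strand), a full-length copy with 4 differences over 555 bases and an open reading frame as long as the parent's, went the other way. The Vehicle libraries held 5187 and 6119 of its counts and the EGCG libraries 3575 and 4283, or 154 and 165 CPM against 107 and 77.4 CPM. Both EGCG libraries lay below both Vehicle libraries, with means of 159 ± 8.36 and 92.4 ± 21.2 CPM (SD, n = 2). The log2 fold change was −0.79 ± 0.21 (SE), for which edgeR gave an unadjusted p of 0.02 and an adjusted p of 1.00. Within replicate 1 the log2 difference was −0.52, and within replicate 2 it was −1.10. The unadjusted p in edgeR was 0.055 without Vehicle replicate 1, 0.0689 without Vehicle replicate 2, 0.0195 without EGCG replicate 1 and 0.112 without EGCG replicate 2.

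The counts of the parent and of this copy together did not differ between the groups beyond the spread of the libraries. Rpl17 and Rpl17-ps10 summed to 207 and 222 CPM in Vehicle and to 221 and 202 CPM in EGCG. The log2 difference of this sum was 0.09 in replicate 1 and −0.14 in replicate 2. The parent's part of the family's counts went from 16.1% and 14.8% in Vehicle to 31.4% and 32.9% in EGCG, and that of Rpl17-ps10 from 46.2% and 43.0% to 29.8% and 20.3%. The whole family, the parent and 11 pseudogenes, was at 332 and 385 CPM with Vehicle and at 361 and 380 CPM with EGCG, and its log2 fold change was 0.05 ± 0.17 (SE).

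Rpl17-ps3 (chr12:67510756-67511311, + strand) and Rpl17-ps5 (chr5:22612628-22613182, − strand), each with 2 differences from the parent, followed the replicate number. Rpl17-ps3 was at 64.5 and 76.4 CPM in Vehicle 1 and EGCG 1 and at 157 and 172 CPM in Vehicle 2 and EGCG 2. Rpl17-ps5 was at 58.7 and 60.9 CPM in the replicate 1 libraries and at 4.08 and 4.46 CPM in those of replicate 2. One was higher and the other lower in replicate 2, and their sum was 123 and 137 CPM in replicate 1 and 161 and 177 CPM in replicate 2. The other members that passed the count filter were low: Rpl17-ps9 had 28 to 44 counts a library, Rpl17-ps8 15 to 20 and Rpl17-ps4 2 to 12, and the remaining 5 had at most 4 counts in a library.

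**Figure D4:**
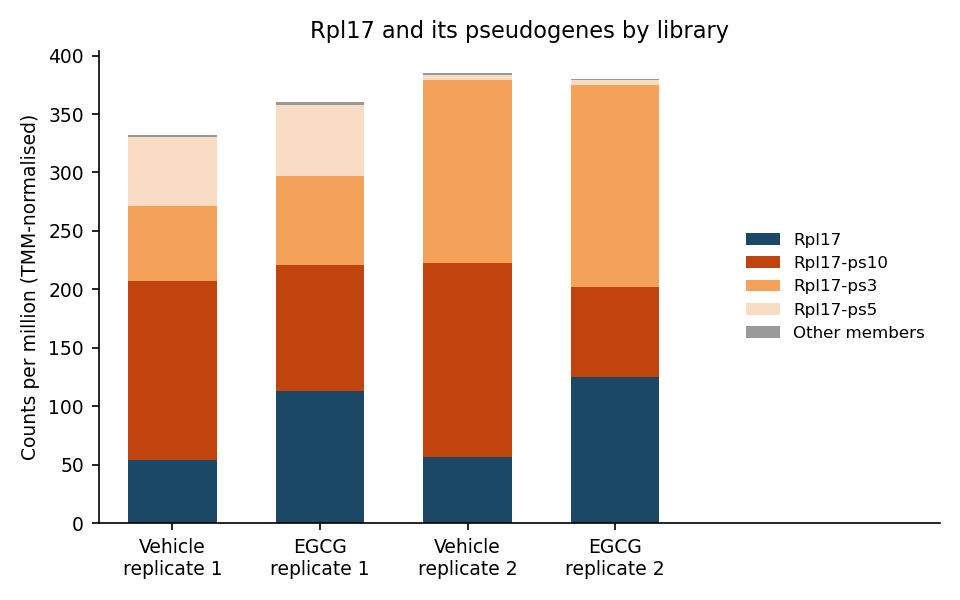
Counts of Rpl17 and its pseudogenes (y axis, TMM-normalised CPM, stacked from 0), with 1 bar for each library ordered by replicate. The dark blue part (Rpl17) is taller and the red part (Rpl17-ps10) shorter in EGCG than in Vehicle within each replicate, while the light part (Rpl17-ps5) is present in replicate 1 and thin in replicate 2.

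With the replicate number as a block, edgeR's quasi-likelihood test gave Rpl17 an adjusted p of 0.0118, the 1 call among 17967 genes. The same rule called 0.00557% of all genes. On the table in which each family was replaced by its sum, that fit called 0 genes of 17849 (0%), with 611 at an unadjusted p under 0.05, and the Rpl17 family sum had an unadjusted p of 0.411. DESeq2's Wald test with the block called 8 genes, Rpl17 among them at an adjusted p of 7.59e-24, and 7 on the family sums. Near copies of Rpl17 outside the rule, 47 rows, added 221, 16, 162 and 12 counts in Vehicle 1, Vehicle 2, EGCG 1 and EGCG 2.

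To see whether other families showed such a pattern, the parent and the sum of its pseudogenes were set side by side in the 31 families with at least 100 pseudogene counts in every library. In 2 of them, Rpl17 and Rps27a, parent and pseudogenes moved in opposite directions in both replicates, with the parent up in each. The Rpl30 family also had opposite signs within each replicate, but the direction switched between replicates. There the log2 difference of the parent was 0.630 and −0.075 in replicates 1 and 2, and that of the pseudogenes −1.60 and 0.539. The log2 difference of the pseudogenes was −0.174 and −0.362 in replicates 1 and 2 for Rpl17. For Rps27a it was −0.394 and −0.048, so the fall in replicate 2 was small and the gap there lay mostly in the parent. These values leave out 15 near copies of Rps27a under names outside the rule. Those rows had 577, 486, 379 and 425 counts in Vehicle 1, Vehicle 2, EGCG 1 and EGCG 2. The Rps27a pseudogenes of the rule had 172, 237, 129 and 343 counts in the same order. In the Rpl17 family the log2 difference between EGCG and Vehicle was larger for the parent than for the pseudogenes by 1.25 in replicate 1 and by 1.50 in replicate 2. In the Rps27a family the same gap was 1.04 and 1.01, and no other family had a gap over 0.5 in 1 direction in both replicates.

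Rps27a, which encodes ubiquitin fused to a small-subunit protein, was at 231 and 162 CPM in Vehicle and 361 and 317 CPM in EGCG. The adjusted p of Rps27a was 1.00 in edgeR and 0.267 with the replicate block, and DESeq2 with the block gave 9.76e-15. For the family sum, edgeR with the block gave an adjusted p of 0.533 and DESeq2 with the block 7.02e-14. The pseudogene Rps27a-ps2, named here after its values were seen, was at 4.94 and 6.27 CPM in Vehicle and 3.82 and 6.18 CPM in EGCG, and its groups overlapped. Because the pseudogene was low beside the parent, the family sum gave nearly the same log2 fold change as the parent row, 0.77 ± 0.23 against 0.79 ± 0.24 (SE). In all, the log2 fold change moved by more than 0.1 between the parent row and the family sum in 4 of 61 families.

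Across the set, no pseudogene was called at an adjusted p under 0.1 in the comparison of EGCG with Vehicle (0 of 118 tested by edgeR's quasi-likelihood test, against 0% of 17967 genes). At an unadjusted p under 0.05 the count was 1 of 118, Rpl17-ps10, against 0.195% of all genes, or 35. With the replicate number as a block it was 5 of 118, against 3.55% of all genes. The adjusted threshold was passed by none of the 118 in that fit, against 0.00557% of all genes. DESeq2's Wald test called 0 of the 118 with the block, against 0.0445% of all genes, and 0 without it, against 0.00557%. It had 3 and 1 of them at an unadjusted p under 0.05, against 0.929% and 0.189% of all genes. The median log2 fold change was 0.06 over the 118 and 0.01 over all genes.

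The largest falls among pseudogenes with at least 10 counts in every library were those of Rpl30-ps10, Rpl17-ps10 and Rpl30-ps1. Rpl30 encodes a large-subunit protein, and Rpl30-ps10 (chrX:71803688-71804034, + strand) had 483 counts in Vehicle 1, 106 in Vehicle 2, 128 in EGCG 1 and 245 in EGCG 2. Its log2 fold change was −1.05 ± 0.81 (SE), with log2 differences of −1.88 in replicate 1 and 0.62 in replicate 2. Rpl30-ps1 (chr6:38376807-38377154, + strand) had 137, 56, 54 and 105 counts in the same order, and its log2 fold change was −0.66 ± 0.59. Without Vehicle replicate 1 the log2 fold changes turned to 0.53 for Rpl30-ps10 and 0.22 for Rpl30-ps1.

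Both Rpl30 pseudogenes were highest in Vehicle replicate 1, the library in which the row of Rpl30 was lowest, at 158 CPM against 234 to 246 CPM in the other libraries. The fibroblast marker sum was also highest in that library, at 279 CPM, with Col1a2, Col1a1 and Dcn highest there at 132, 117 and 23.3 CPM, whereas Lum was highest in Vehicle 2 and Pdgfra in EGCG 1. Its part in the result was not tested. Among the 3 largest rises were those of Rpsa-ps12 (19 and 12 counts in Vehicle, 27 and 35 in EGCG) and Rps15a-ps3 (16 and 25, then 29 and 49). Their log2 fold changes were 0.70 ± 0.56 and 0.61 ± 0.48 (SE), and each missed the unadjusted threshold of 0.05 in edgeR. With 1 library left out they ran from 0.34 to 1.15 and from 0.38 to 0.88.

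Summed over all families, pseudogenes named by the rule held 9.92% and 9.84% of the family counts in Vehicle and 9.61% and 9.34% in EGCG. Near copies under other names are not in these shares. The difference was −0.408 percentage points, and −0.313 and −0.502 within replicates 1 and 2. An exact two-sided permutation test over the 4 libraries gave p = 0.333, the smallest that 2 against 2 libraries can give. Without the Rpl17 family the shares were 8.67% and 8.49% in Vehicle and 8.62% and 8.34% in EGCG, a difference of −0.107 percentage points that overlapped between groups.

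The libraries differed more by replicate number than by treatment. The median size of the log2 difference over the 118 pseudogenes was 0.268 between EGCG 1 and Vehicle 1 and 0.202 between EGCG 2 and Vehicle 2, against 0.496 between Vehicle 1 and Vehicle 2 and 0.51 between EGCG 1 and EGCG 2. The EGCG difference had the same sign in both replicates for 61 pseudogenes, 37 higher and 24 lower, and opposite signs for 57, or 48.3%. Over all genes 28.6% were higher in both, 22.2% lower in both and 48.5% of opposite sign. The difference between replicates had the same sign in Vehicle and in EGCG for 85 of the 118, and for 80.4% of all genes.

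**Figure D5:**
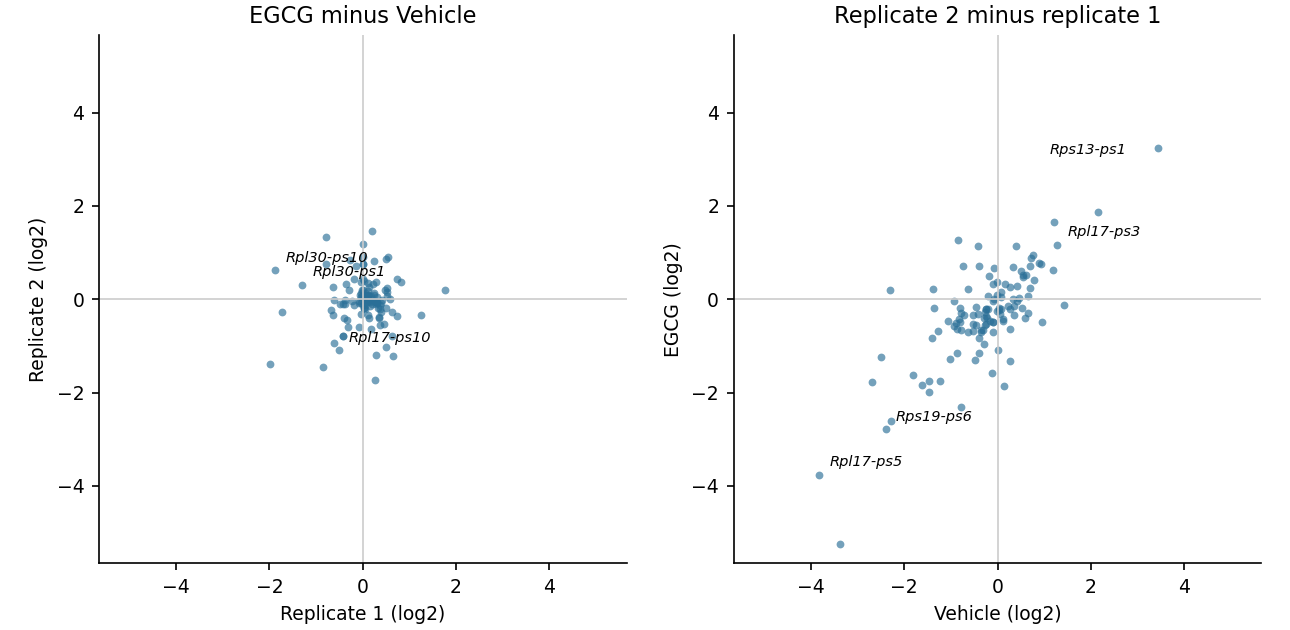
Log2 differences of the 118 pseudogenes tested, with 1 point for each pseudogene and the same scale on all axes. The left panel sets EGCG minus Vehicle in replicate 2 against replicate 1, and the right panel sets replicate 2 minus replicate 1 in EGCG against Vehicle, where points spread along the diagonal from Rpl17-ps5 (−3.83 and −3.76) to Rps13-ps1 (3.43 and 3.24).

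In the fit with the block, edgeR's quasi-likelihood test put 37 of the 118 pseudogenes at an adjusted p under 0.1 between replicate 2 and replicate 1, against 48.3% of all genes. Of these, 13 were higher in replicate 2, against 25.8% of all genes, and 24 lower, against 22.6%. The lean to lower was shared by the 1125 other processed pseudogenes tested. Of those, 271 (24.1%) passed the same threshold, 84 higher in replicate 2 and 187 lower. Differences of more than 1 on the log2 scale in the same direction in both groups were found for 16 of the 118 pseudogenes. Of the 16, 4 were higher in replicate 2, against 4.5% of all genes, and 12 lower, against 8.47%. This comparison and the genes named from it were chosen after their values were seen.

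Rps13-ps1 (chr8:87047689-87048226, + strand) had 115 and 118 counts in the Vehicle and EGCG libraries of replicate 1 and 1376 and 1882 in those of replicate 2, a log2 difference of 3.35 ± 0.10 (SE). Its parent Rps13, a small-subunit gene, was at 205 to 274 CPM in the 4 libraries, a log2 difference of −0.27 with an adjusted p of 0.0297 in edgeR. Rps19-ps6 had 1453 and 1764 counts in replicate 1 and 300 and 424 in replicate 2, and Rps19-ps2 had 54 and 84, then 4 and 1. Their parent Rps19, a small-subunit gene known from Diamond-Blackfan anaemia, was at 414 to 456 CPM, a log2 difference of 0.09 with an adjusted p of 0.223 in edgeR. In the Rps13 family Rps13-ps2 had 83 and 88 counts in replicate 1 and 63 and 90 in replicate 2.

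In the Rpl35a family, as in that of Rps18, the parent row moved. Rpl35a was at 52.1 and 58.9 CPM in replicate 1 and at 11.0 and 9.92 CPM in replicate 2, and the pseudogene share of the family was 12.3% and 16.1% in replicate 1 and 44.9% and 42.8% in replicate 2. The neuron marker Snap25 also followed the replicate number, at 16.8 and 15.3 CPM in replicate 1 and 0.524 and 0.656 CPM in replicate 2. Rbfox3 and Syt1 did not follow it. Rbfox3 was at 0.119, 0.165, 0.234 and 0.182 CPM in Vehicle 1, Vehicle 2, EGCG 1 and EGCG 2. Syt1 was at 0 in both Vehicle libraries and had 2 counts in each EGCG library. The 3 neuron markers summed to 15.6 to 16.9 CPM in replicate 1, nearly all of it Snap25, and to 0.689 to 0.874 CPM in replicate 2. The part of the Snap25 difference in the pseudogene counts was not tested.

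Some rows cannot be read on their own for another reason. Of the 298 pseudogenes, 32 overlap another row on the same strand, 20 of them among the 118, and 207 overlap no other row. With only rows free of such overlap, the difference in the pseudogene share was −0.464 percentage points.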

How the data were processed

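Directional poly-A libraries of primary microglia were sequenced, 2 from EGCG-treated and 2 from Vehicle cultures. The authors deposited whole-number counts per gene, aligned with HISAT2 to GRCm38.p6 per the labels, in 2 tables that each hold one replicate number. The counting program and its treatment of reads with several matches are not given in the sources used here. The tables were joined on gene ID, leaving out 697 and 329 loci assembled separately in each (0.11% to 0.156% of counts), and no column of values was left unused. The samples were grouped by their titles.

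The fit was edgeR 4.0.16 (quasi-likelihood, two-sided, treatment only, TMM factors) on every gene that had 10 or more counts over the 4 libraries together, with Benjamini-Hochberg adjustment over 17967 genes, in R 4.3.3. Calls were made at an adjusted p under 0.1, as in the study's methods, and log2 values within replicates used a prior count of 2. CPM uses TMM-normalised library sizes, except for markers and the limits for counts of 0. Those use the counts on the joined genes, without TMM factors. Family sums replaced each parent and its pseudogenes by 1 row. DESeq2 1.42.0, a replicate block, other scalings, filters and left-out libraries were the alternatives. Pseudogene transcripts of GENCODE M21 were aligned to parent transcripts with BLAST 2.17.0. The fits were also run on simulated counts, drawn for each row on its own with a single dispersion. Those counts hold no reads divided between near-identical rows, so they cannot test how parent and pseudogene share reads. No protein sequence was used.

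The pseudogenes, lists and rules were chosen with earlier results of these data known. Named were the 10 pseudogenes of highest mean CPM, any pseudogene called, the 3 largest rises and falls among those with at least 10 counts in every library, the 5 families with the highest pseudogene share and each Rpl17 pseudogene that passed the filter. Of the 3 largest rises, 1 is not reported here. Others are said to be chosen after their values were seen.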

Additional observations from a re-analysis of the deposited data

How the results depend on the processing

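No pseudogene was called under any alternative run. Of the 118, 1 had an unadjusted p under 0.05, a count that edgeR with the replicate block raised to 5, 3 in DESeq2 with the replicate block and 0 to 1 with 1 library left out (0 without Vehicle replicate 1 or EGCG replicate 2, and without Vehicle replicate 2 Rpl30-ps10 at 0.0103 in place of Rpl17-ps10). Over all genes, 0 were called, 1 by edgeR with the replicate block, 1 by DESeq2 without it (Rpl17, adjusted p = 0.0292) and 8 by DESeq2 with it, and at an unadjusted p under 0.05 the 35 became 638, 167 in DESeq2 with the block, 10 with at least 10 counts in every library and 36 to 164 with 1 library left out (104 without Vehicle replicate 2, 164 without EGCG replicate 2). The labels do not say what the replicate number marks, and with 2 pairs the pairing rests on the data alone. The differences between replicates correlated between Vehicle and EGCG with r = 0.75 over the 118 pseudogenes and 0.63 over all genes, as a description. The 118 pseudogenes detected became 158 at 1 count, 77 at 10 counts in every library and 56 at 1 CPM in every library. The difference in the pseudogene share was −0.107 percentage points without the Rpl17 family, −0.0925 without the families with more than 50% of their counts on pseudogenes (added after seeing the data), −0.272 as a median over families and −0.542 to −0.274 with 1 library left out.

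Of 383 log2 fold changes recomputed for 18 named pseudogenes and 14 parents and family sums, 339 kept their direction and their side of the threshold, 5 passed it with the same direction (3 of Rpl17, and Rps27a and its family sum in DESeq2 with the block) and 39 changed sign, all but 1 of them with 1 library left out. The other was Rpl17-ps8, at −0.0060 with library totals only. With 1 library left out, Rpl17 ran from 1.02 to 1.17 and Rpl17-ps10 from −1.05 to −0.59, and both kept their sign. The ranges of those that changed sign were −0.20 to 0.39 for Rpsa-ps10, −0.043 to 0.26 for Rpl34-ps1, −0.17 to 0.22 for Rpl3-ps1, −0.21 to 0.026 for Rpl14-ps1, −0.043 to 0.12 for Rps2-ps13, −0.55 to 0.94 for Rpl17-ps3, −0.069 to 0.11 for Rps10-ps2, −0.25 to 0.15 for Rpl21-ps15, −0.13 to 0.22 for Rps12-ps3, −1.80 to 0.53 for Rpl30-ps10 and −1.21 to 0.22 for Rpl30-ps1. Among the other Rpl17 pseudogenes they were −2.82 to 3.01 for Rpl17-ps5, −0.96 to 0.41 for Rpl17-ps9, −0.38 to 0.34 for Rpl17-ps8 and −0.97 to 1.89 for Rpl17-ps4. Among parents they were −0.11 to 0.52 for Rps10, −0.59 to 0.34 for Rpl34, −0.54 to 0.27 for Rpl21 and −0.041 to 0.59 for Rpl30, and for family sums −0.028 to 0.088 for Rps10, −0.034 to 0.24 for Rpl34, −0.052 to 0.14 for Rpl17, −0.30 to 0.16 for Rpl21 and −0.029 to 0.46 for Rpl30. A fit with 1 library left out assumes that the lone library varies like the other group. The cause of these changes was not tested. Depth limits statements on rows of few counts, such as the 40 pseudogenes with 1 to 9 counts.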
